A study of Homo sapiens with 24 samples.

Results

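The change in the transcriptome of NB4 cells after all-trans retinoic acid (ATRA) was measured across all annotated genes. The comparison used 6 of the 24 libraries of the series, taken by the names of their count columns: 3 libraries of NB4 cells given 1 µM ATRA for 48 h and 3 of untreated NB4 cells. NB4 is a human acute promyelocytic leukaemia (APL) line that carries the PML-RARA fusion gene, and the labels give its genotype as WT. All cells were kept in RPMI-1640 medium with fetal bovine serum, and the length of culture of the untreated cells is not given in the sources used here. The other libraries hold NB4 cells given 0.8 µM arsenic trioxide or both agents, and the same 4 conditions in HL-60, a human promyeloblast line without the fusion. The HL-60 libraries with ATRA and without treatment are used below to test where the response of NB4 differed. The labels number the libraries of each condition by batch, from 1 to 3. They do not say that the 3 libraries of a group came from separate cultures, so the p-values measure the spread between these libraries, which may be technical.

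Retinoic acid acts through retinoic acid receptors, which bind DNA together with retinoid X receptors and switch from repression to activation when the ligand binds. In APL the fusion of PML with the receptor RARA holds target genes silent and stops myeloid cells at the promyelocyte stage. A pharmacological dose of ATRA releases the corepressors, drives degradation of the fusion protein and lets the cells mature toward neutrophils. Neutrophil maturation is known to proceed in order: azurophil granule proteins are made by promyelocytes, followed by specific granule, gelatinase granule and secretory vesicle proteins, with the phagocyte oxidase, adhesion molecules and chemoattractant receptors appearing on the way.

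The 6 libraries held between 39769156 and 46408919 counts, and the 24 libraries between 37811652 and 57795273. The counts of ATRA replicates 2 and 3 were furthest apart over all genes. Their chi-square per degree of freedom was 35.52, and it was 18.71 between ATRA replicates 1 and 2, 14.18 between 1 and 3, and 7.66 to 13.58 between untreated libraries. The lead counts are given with and without ATRA replicate 2. Of 10 markers of promyelocytes and neutrophil precursors, 9 were tested and their summed level was between 10100 and 10800 CPM (counts scaled to a common library size) untreated and 7410 and 8290 CPM with ATRA. MPO (myeloperoxidase) makes up most of that sum, at a mean of 9395 CPM untreated and 5098 CPM with ATRA. Of the 9, MPO, CTSG and LYZ fell, while PRTN3, AZU1, CD33, CEBPE, CSF3R and SPI1 rose. The tenth, ELANE (neutrophil elastase), had 26 counts in the 3 untreated libraries together and 0 with ATRA. Summed erythroid markers lay between 2.88 and 4.12 CPM untreated and 3.09 and 3.79 CPM with ATRA, with 5 of 6 at 0 in all 6 libraries. Summed markers of eosinophils, basophils and mast cells went from between 276 and 311 to between 153 and 165 CPM. In that list EPX, HDC, PRG2 and TPSAB1 fell, while CLC rose from a mean of 0.0999 to 64.5 CPM. Summed T cell markers went from between 21.0 and 25.8 to between 1.16 and 3.08 CPM (CD8A at 0), most of it from TRAC, at a mean of 21.3 CPM untreated and 0.395 CPM with ATRA. The sum of B cell markers went from between 4.93 and 5.07 to between 14.6 and 17.9 CPM (MS4A1 and PAX5 at 0), and that of natural killer cells from between 31.7 and 33.4 to between 74.9 and 103 CPM. Their part in the results was not tested. These are bulk libraries, in which fewer cells expressing a gene and less RNA per cell cannot be told apart.

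Of 60655 genes in the table, 16370 had enough counts to be tested, and of these 5117 rose and 4689 fell with ATRA (edgeR quasi-likelihood test, Benjamini-Hochberg adjusted p below 0.05), which is 31.3% and 28.6% of the genes tested. The median log2 change of all genes tested was 0.03. Rises reached further than falls. At least 2-fold changes were called for 2581 genes that rose (15.8%) and 1148 that fell (7.01%), at least 16-fold changes for 554 and 110, and at least 64-fold changes for 283 and 53. Of the called genes, 9611 (98.01%) moved in the same direction in each of the 3 batches. The calls were made from these same libraries, so a high share is built in and is no separate support. Without ATRA replicate 2, 5017 genes rose and 4773 fell of 16990 tested, so that 57.6% were called. Among 12335 protein-coding genes 4154 rose and 4250 fell, and among 2522 long non-coding RNA genes 652 rose and 275 fell. Of the genes tested, 259 had no count in any untreated library and 70 had none in any ATRA library, which fixes their direction. Scaling by library totals alone moved the balance, to 4688 genes higher and 5172 lower.

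**Figure D1:**
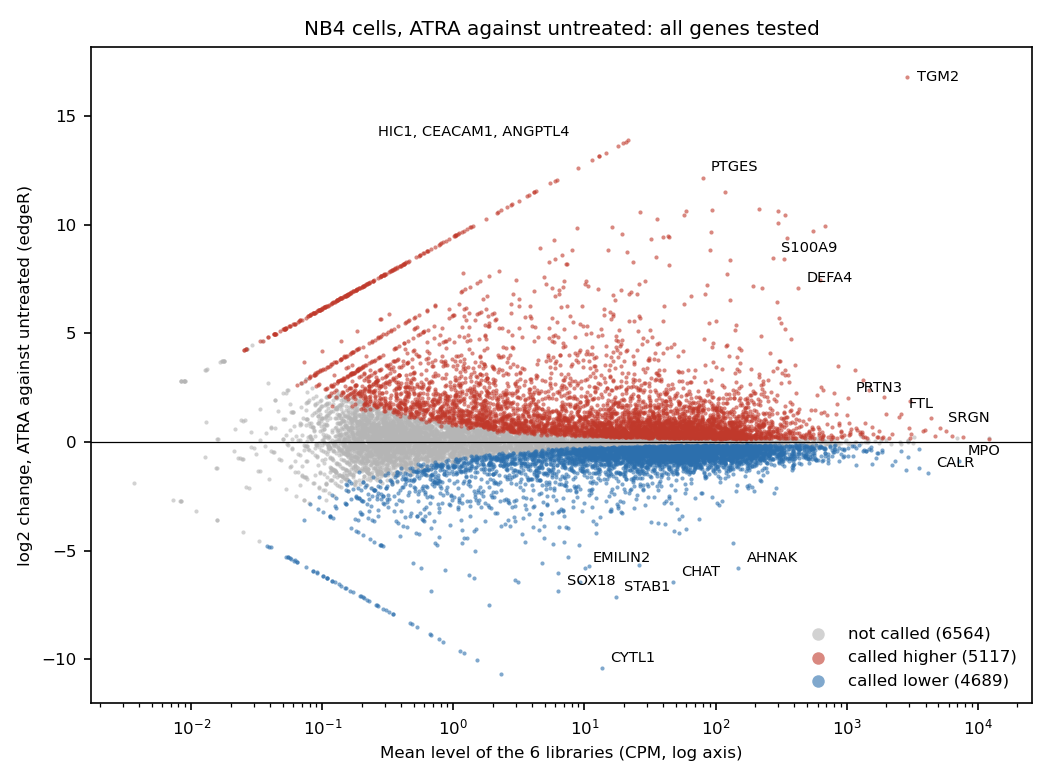
Log2 change with ATRA (y axis) against mean level in CPM over the 6 libraries (x axis, log scale) for the 16370 genes tested, with 5117 called higher and 4689 called lower in colour and 6564 not called in grey. The largest rises stand further from 0 than the largest falls, and the diagonal lines are genes with no or few counts in a group, whose fitted change is no bound.

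Throughout, a level is in CPM scaled by edgeR’s library size factors, and the 3 values of a group are given in the order of replicates 1 to 3. Changes are log2 ratios ± a standard error (SE), with 3 libraries in each group. The SE is the size of the change divided by the square root of the test's F statistic. With few counts in a group it can be smaller than the counting error, also where no interval is given, as for BPI and DEFA3. Where a group held 30 counts or fewer, the ratio of the groups is given with its 95% counting interval. Where it held none, a bound is given, set against a floor of 3 counts per library. Intervals and bounds cover counting error only and treat counts as independent. Low counts were mostly even, so mates may have been counted separately. The intervals would then be too narrow, and the floor of 3 counts would stand for fewer fragments. Positions are those of the gene in GRCh38, and its level sums reads over its annotated exons.

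The gene with the largest rise was TGM2 (chr20:38127387-38166578), which encodes transglutaminase 2, a protein cross-linking enzyme known for its induction by retinoids. It had 0.0986, 0 and 0.0439 CPM in untreated cells and 5722, 4971 and 6608 CPM with ATRA. All 3 ATRA libraries lay above all 3 untreated ones. For 62.9% of the genes tested the groups did not overlap. The ratio was 122000-fold with a counting interval of 55800 to 331000, and the fitted change was 16.80 ± 0.185 (adjusted p = 1.17e-24). That SE is smaller than the counting error of the 6 untreated counts, so the interval is the measure of precision here. Per kilobase of exon its level went from 0.00591 to 718 CPM.

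The next largest rises were of genes with no count in any untreated library. HIC1 (chr17:2054154-2063241), a transcriptional repressor, had 45.0, 37.4 and 47.1 CPM with ATRA, at least 602-fold higher. CEACAM1 (chr19:42507304-42561234), a carcinoembryonic-antigen-related adhesion receptor of neutrophils, had 36.5, 39.8 and 47.9 CPM, at least 578-fold higher. ANGPTL4 (chr19:8363289-8374373), a secreted inhibitor of lipoprotein lipase, had 37.1, 26.1 and 55.4 CPM, at least 552-fold higher. These 3 genes were undetected in every untreated library and detected in every ATRA library. The chemokine receptor CXCR5 (chr11:118883766-118897799) had 28.4, 27.1 and 31.8 CPM, at least 406-fold higher. Of its exon bases, 88.6% overlap BCL9L on the opposite strand, and the strand setting of the counting is not given in the sources used here, so reads of both genes cannot be told apart. The water and glycerol channel AQP9 (chr15:58138169-58185911) had 24.7, 24.8 and 28.5 CPM, at least 363-fold higher. Also from no count, DAAM2 (a formin-related Wnt pathway protein), SELP (P-selectin), P2RY13 (an ADP receptor), LILRA5 (a leukocyte immunoglobulin-like receptor) and the less studied KIAA1755 rose by at least 360-fold, 321-fold, 248-fold, 172-fold and 167-fold. The overlap with genes on the opposite strand was 30.1% of exon bases for DAAM2 and 29.8% for HIC1. PTGES (chr9:129738331-129753047), the terminal prostaglandin E synthase, had 0, 0.100 and 0 CPM untreated and 152.8, 114.9 and 210.2 CPM with ATRA. Its ratio was 5050-fold, with a counting interval of 1970 to 18500.

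Among the falls, CYTL1 (chr4:5014586-5019472), a cytokine-like secreted protein of haematopoietic progenitors, went from 27.6, 27.7 and 26.4 CPM to 0, 0 and 0.0497 CPM. The ratio was 1570-fold lower, with a counting interval of 434 to 13000. STAB1 (chr3:52495338-52524495), the scavenger receptor stabilin-1, went from 35.8, 31.1 and 37.0 CPM to 0.0534, 0.106 and 0.547 CPM, 143-fold lower (interval 99.1 to 216). CYTL1 was at or near 0 in all 3 ATRA libraries, whereas STAB1 was higher in ATRA replicate 3 than in replicates 1 and 2. CHAT (chr10:49609095-49665104), choline acetyltransferase, went from 89.4, 99.4 and 90.8 CPM to 0.320, 1.58 and 1.24 CPM, and its change was -6.46 ± 0.223 (adjusted p = 1.22e-16). The transcription factor SOX18 was 120-fold lower (68.5 to 233), the membrane protein THSD7A 90.1-fold lower (45.5 to 209), and the adhesion protein KIRREL3 48.7-fold lower (32.0 to 78.0). The near-identical annexin genes ANXA8 and ANXA8L1 were 87.8-fold and 65.6-fold lower, from 18.15 and 12.44 CPM to 0.203 and 0.189 CPM, and the counting may have split reads between them. AHNAK (chr11:62433542-62556235), a giant scaffold protein, went from 302, 290 and 284 CPM to 4.53, 5.70 and 5.57 CPM, a change of -5.79 ± 0.0938. EMILIN2, an extracellular matrix glycoprotein, changed by -5.82 ± 0.266, the tyrosine phosphatase PTPN3 by -5.69 ± 0.168, and the microtubule-associated MTUS1 by -5.32 ± 0.281.

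Measured by the gain in level per kilobase of exon, the largest increase was of FTL, the ferritin light chain, from 1713 to 4167 CPM per kb. SRGN, the granule proteoglycan serglycin, went from 3285 to 5117, the defensin gene DEFA4 from 10.2 to 1365, PRTN3 (proteinase 3) from 349 to 1424, and S100A9, a calprotectin subunit, from 2.71 to 950 CPM per kb. Of the 8 genes with the largest losses on this scale, 5 encode chaperones, a grouping made after their values were seen. CALR (chr19:12938578-12944489), the calcium-binding chaperone of the endoplasmic reticulum, had 5917, 6055 and 6265 CPM untreated and 2378, 2138 and 2191 CPM with ATRA, a change of -1.44 ± 0.0583 (adjusted p = 2.15e-15). The cytosolic chaperones HSPA8, HSP90AA1 and HSP90AB1 changed by -1.20 ± 0.0544, -1.28 ± 0.0906 and -0.68 ± 0.05, and the mitochondrial chaperone HSPD1 by -1.02 ± 0.0622. HSP90AA1 went from 772 to 317 CPM per kb. MPO (myeloperoxidase) lost the most after CALR, from 2664 to 1446 CPM per kb.

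Genes of the retinoid pathway mostly rose. Of 33 listed, 25 were tested, and 19 rose, 4 fell and 2 did not pass, beside 31.3% higher and 28.6% lower over all genes tested. The median change of the 25 was 1.82, against 0.03 over all genes. Among the receptors, RARB (retinoic acid receptor beta, chr3:25174332-25597932) had no count untreated and 3.68, 4.96 and 4.40 CPM with ATRA, at least 60.7-fold higher. RARA, the receptor partner in the fusion, had 26.1, 25.2 and 26.9 CPM untreated and 45.6, 35.6 and 44.6 CPM with ATRA, a change of 0.69 ± 0.0921 (adjusted p = 1.1e-06), and reads of the fusion transcript from its part of the gene are counted in it. RARG rose from few counts by 4.81-fold (3 to 8.02) and RXRB by 0.52 ± 0.114. RXRA, a retinoid X receptor that partners them on DNA, fell from 118.9, 121.5 and 125.5 CPM to 86.6, 68.7 and 110.6 CPM (-0.46 ± 0.112, adjusted p = 0.0012).

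RARB is shown because its promoter is the textbook retinoic acid response element and because it was the single match among the 26 retinoid genes with a promoter. The letters are from RefSeq (GRCh38.p14, plus strand, chr3:25428163-25428262), and capitals mark the direct repeat.
RARB: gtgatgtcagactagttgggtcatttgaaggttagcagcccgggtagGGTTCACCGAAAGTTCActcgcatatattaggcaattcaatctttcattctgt
The unit searched for was AGGTCA, with AGTTCA allowed as a variant and with the forms GGGTCA or, as in RARB, GGTTCA allowed as well. The search took any 2 such units in the same orientation, 1, 2 or 5 bases apart, on both strands, from 250 bases before to 50 after the start. It matched 0.256% of 27305 promoters. None of the 10 promoters available for the 12 genes with the largest rises held it, which says only that these letters are not in this window.

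The enzymes that break down retinoic acid rose. CYP26B1 (chr2:72129238-72148038) had 0.197, 0.0501 and 0.307 CPM untreated and 65.6, 56.7 and 86.6 CPM with ATRA, 368-fold higher (interval 247 to 574). CYP26A1 was 147-fold higher (40.4 to 1220), from 1 library with a count to 1.87, 2.06 and 3.03 CPM, and 25.2% of its exon bases overlap another gene. Both hydroxylases were thus low or undetected untreated and present in every ATRA library. Other retinoid oxidoreductases also rose. DHRS3, a retinal reductase, went from 1.13, 0.902 and 2.04 CPM to 116.6, 97.5 and 125.3 CPM (6.35 ± 0.165, adjusted p = 8.98e-19), DHRS9, a retinol dehydrogenase, changed by 3.62 ± 0.0712 and RDH11 by 0.71 ± 0.0777. RDH10, which oxidises retinol, fell from 13.2, 13.1 and 14.9 CPM to 6.38, 5.27 and 4.799 CPM (-1.32 ± 0.123), and the retinal dehydrogenases were scarce, with ALDH1A1 13.8-fold lower (6.08 to 38.5) and ALDH1A2 3.51-fold higher (2.26 to 5.63). STRA6, the membrane receptor for retinol uptake, changed by 3.92 ± 0.179, from 1.23 to 1.75 CPM untreated to 19.3 to 29.4 CPM with ATRA. CRABP2, which carries retinoic acid to the nucleus, was at 0.31 ± 0.352 and did not pass.

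Of the cofactors, the coactivator NCOA3 rose from 49.1, 50.03 and 45.8 CPM to 360.0, 404.5 and 370.1 CPM (2.97 ± 0.0667, adjusted p = 7.58e-20). It stood far above the other cofactors in size of change: NCOA2 rose by 0.71 ± 0.0689 and the corepressor NCOR1 by 0.23 ± 0.0563, while NCOA1 was at -0.04 ± 0.0769. The known retinoid-responsive genes rose as a group, 4 of 4 tested. ASB2, a ubiquitin ligase subunit, went from 1.48, 0.952 and 1.89 CPM to 163.2, 131.6 and 199.2 CPM (6.82 ± 0.169), and PLAAT4 (a phospholipase-type tumour suppressor) was 206-fold higher (94.5 to 564).

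PML, the other partner of the fusion, organises nuclear bodies in which proteins are modified by SUMO. Of 17 genes of these bodies and of SUMO conjugation, 7 rose, 9 fell and 1 did not pass, with a median of -0.18. By role, 5 of 7 body proteins rose, while 8 of 10 SUMO genes fell. PML rose from 59.0, 58.7 and 61.8 CPM to 125.3, 115.6 and 132.9 CPM (1.06 ± 0.0658), and its relatives SP100, SP110 and SP140L by 1.32 ± 0.0906, 1.59 ± 0.0757 and 1.16 ± 0.0697. The histone chaperone partner DAXX was at -0.07 ± 0.0767 and did not pass, and the chromatin remodeller ATRX fell by 0.42 on the log2 scale. The SUMO-activating subunits UBA2 and SAE1 changed by -0.59 ± 0.0632 and -0.40 ± 0.0567, and the ligase PIAS1 by 0.34 ± 0.0736.

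Of 18 transcription factors of granulocytes and monocytes 13 rose and 2 fell, and of 12 progenitor factors 6 fell and 2 rose. One of the 6, HOXA10, changed by -0.19 ± 0.0748 and was no longer called without ATRA replicate 2 (edgeR adjusted p = 0.0708). The list of 30 tested had a median of 0.40, with 15 up, 8 down and 7 not passed. CEBPE, which drives the specific granule stage, went from 66.5, 67.0 and 67.1 CPM to 314.7, 259.0 and 324.2 CPM (2.16 ± 0.0736). CEBPB, the stress-induced member of the family, went from 8.41, 7.21 and 7.72 CPM to 190.9, 155.8 and 202.7 CPM (4.56 ± 0.100, adjusted p = 5.38e-20). In contrast CEBPA, which starts the granulocyte programme, was lower in all 3 ATRA libraries (96.4, 84.3 and 90.8 against 106.9, 120.6 and 113.8 CPM), a change of -0.33 ± 0.0886, with 43.4% of its exon bases shared with genes on the opposite strand. SPI1 (PU.1) changed by 1.76 ± 0.0759, BCL6 by 5.52 ± 0.281, and the vitamin D receptor VDR by 0.92 ± 0.0869. KLF4, a monocyte factor, was 74.5-fold lower (28.8 to 275). RUNX1, which marks all haematopoietic progenitors, was at 0.02 ± 0.0564.

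Among progenitor factors, MYB went from 545.0, 543.2 and 547.5 CPM to 243.8, 249.5 and 210.0 CPM (-1.22 ± 0.0657). ZBTB16 (PLZF), itself a fusion partner of RARA in variant APL, went from 58.7, 61.98 and 58.8 CPM to 3.95, 4.77 and 5.40 CPM (-3.67 ± 0.121). GFI1 and ETV6, repressors of progenitor genes, changed by -0.83 ± 0.0708 and -0.82 ± 0.0672, and GATA2 by -0.74 ± 0.133. The 2 progenitor factors that rose were the inhibitors of DNA binding ID1 (7.25 ± 0.299) and ID2 (4.21 ± 0.158). ID1 went from 0.641, 0.401 and 0 CPM to 52.6, 43.4 and 58.2 CPM.

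**Figure D2:**
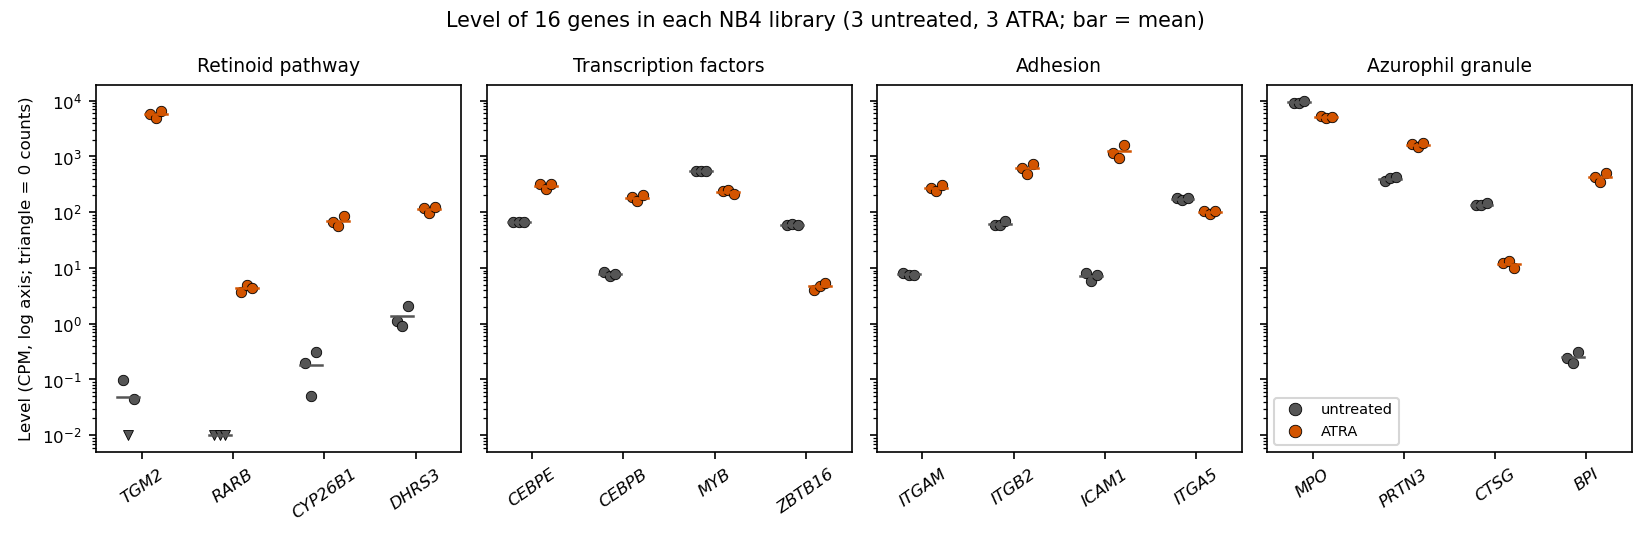
Level in CPM (y axis, log scale) of 16 genes in each of the 3 untreated and 3 ATRA libraries, with a bar at the group mean and a triangle for a library at 0. TGM2, RARB, BPI and CYP26B1 rise from near or at 0, while MYB, ZBTB16, ITGA5, MPO and CTSG lie lower in all 3 ATRA libraries.

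Azurophil granule genes went both ways. Of 14 tested, 8 rose, 5 fell and 1 did not pass (median 0.57). Of the 6 proteases and enzymes, 4 fell. MPO went from 9245, 9133 and 9807 CPM to 5367, 4864 and 5062 CPM (-0.88 ± 0.0723). CTSG (cathepsin G) went from 132.6, 133.0 and 145.8 CPM to 12.2, 13.3 and 10.1 CPM (-3.53 ± 0.107, adjusted p = 1.29e-17). The serine protease PRSS57 and lysozyme, LYZ, changed by -2.04 ± 0.0929 and -1.70 ± 0.119, with 34.0% of the exon bases of LYZ shared with a gene on the opposite strand. PRTN3 went the other way, from 366.1, 413.1 and 421.3 CPM to 1676, 1463 and 1758 CPM (2.03 ± 0.0908), as did the related AZU1 (azurocidin, without protease activity, 0.53 ± 0.0936). The antimicrobial proteins included the largest rises of the list. BPI, the bactericidal permeability-increasing protein, went from 0.247, 0.200 and 0.307 CPM to 423.5, 350.8 and 509.2 CPM (10.70 ± 0.183). The defensins DEFA3 and DEFA4 changed by 8.36 ± 0.114 and 7.06 ± 0.0904. DEFA3 is nearly identical to DEFA1 and DEFA1B, which were near 0 in all 6 libraries, so the level of DEFA3 is uncertain. RNASE2, an eosinophil-type ribonuclease, changed by -1.17 ± 0.0631. SERPINB1, the cytosolic inhibitor of these proteases, went from 9.44, 12.4 and 10.7 CPM to 231.8, 219.2 and 236.6 CPM (4.40 ± 0.0973).

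Genes of the later granules rose in 12 of 17 cases, with 4 falling and 1 not passing (median 1.56), but most stayed at low levels. MMP8 (neutrophil collagenase) had 0.0986, 0 and 0 CPM untreated and 28.4, 35.9 and 32.9 CPM with ATRA, 1020-fold higher (399 to 3750). ARG1 (arginase 1) was 504-fold higher (197 to 1850) and reached 16.8, 12.5 and 18.6 CPM. LTF (lactoferrin), the defining specific granule protein, was 41.4-fold higher (11.1 to 348) yet reached only 0.453, 0.633 and 0.870 CPM, and CAMP (cathelicidin) 11.6-fold higher (7.3 to 19.3) at 1.92, 1.79 and 1.79 CPM. CRISP3 and OLFM4, both at 0 untreated, were at least 29.2-fold and 15.5-fold higher. The Fc receptor FCGR3B, a late neutrophil marker, was at least 29.1-fold higher, at 2.08, 2.16 and 2.01 CPM, while LCN2 and ALPL had no count in any of the 6 libraries. MMP9 (gelatinase B) fell from 28.9, 23.0 and 32.7 CPM to 3.20, 2.48 and 3.63 CPM (-3.18 ± 0.153), and the vitamin B12 carrier TCN1 was 54.6-fold lower (14.8 to 456). CHI3L1, a chitinase-like protein, was at -0.10 ± 0.0844.

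The phagocyte NADPH oxidase, which makes superoxide, rose in 8 of 10 genes and fell in 2, with a median of 1.64. CYBB (gp91phox, chrX:37780011-37813461) went from 214.6, 223.9 and 199.5 CPM to 2032, 2266 and 2026 CPM (3.31 ± 0.0713). NCF1 (p47phox) went from 1.28, 1.90 and 0.987 CPM to 1307, 1111 and 1659 CPM (9.94 ± 0.174, adjusted p = 1.21e-21). Its pseudogenes NCF1B and NCF1C, nearly identical in sequence, rose to means of 593.1 and 602.8 CPM, so reads may be split among the 3. NCF4 (p40phox) changed by 1.58 ± 0.0876, CYBA (p22phox) by 1.71 ± 0.0767 and the GTPase RAC2 by 2.24 ± 0.0778. The ubiquitous RAC1 fell by 0.29 on the log2 scale, and the proton channel HVCN1, which balances the charge moved by the oxidase, fell from 57.4, 57.6 and 56.9 CPM to 13.4, 11.3 and 17.6 CPM (-2.02 ± 0.107).

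Adhesion molecules rose in 16 of 20 cases, with a median of 3.51. ITGAM (CD11b, chr16:31259967-31332892), the standard surface marker of this maturation, went from 8.21, 7.39 and 7.53 CPM to 267.2, 243.8 and 310.4 CPM (5.15 ± 0.0915). Its partner ITGB2 (CD18) changed by 3.30 ± 0.109, and the sister chains ITGAX (CD11c) and ITGAL (CD11a) by 4.76 ± 0.108 and 2.38 ± 0.0975. ICAM1, the endothelial and leukocyte ligand of these integrins, went from 8.04, 5.84 and 7.39 CPM to 1178, 934.7 and 1630 CPM (7.46 ± 0.184), and ICAM3 changed by 3.71 ± 0.0808. Exon bases shared with a gene on the opposite strand came to 23.6% for ICAM1 and 71.2% for ICAM3. ITGA5, the fibronectin receptor chain, went from 176.4, 166.5 and 178.2 CPM to 103.2, 92.4 and 104.6 CPM (-0.80 ± 0.0643). Besides ITGA5, ITGA4 fell, by 0.21 on the log2 scale (adjusted p = 0.0181). The number of adhesion genes that fell was 1 without ATRA replicate 3 or without untreated replicate 1 or 2, and 3 without ATRA replicate 2, where ITGB1 changed by -0.19 (adjusted p = 0.0211).

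Receptors for antibodies and complement rose in 11 of 13 cases (median 1.56). Those that rose included FCGR2B (4.04 ± 0.248), FCAR (4.01 ± 0.262), the shared signalling chain FCER1G (2.65 ± 0.105), the neonatal receptor FCGRT (3.70 ± 0.119), the C5a receptors C5AR1 and C5AR2 (3.39 ± 0.145 and 2.46 ± 0.128) and CR1 (1.56 ± 0.133). CD59, which blocks the terminal complement complex, changed by -0.25 ± 0.0632. FCGR1A, the high-affinity IgG receptor, fell by 0.31 on the log2 scale (adjusted p = 0.0143). Its fall was not called without untreated replicate 1 (-0.27, adjusted p = 0.0548), which left 1 gene of the list lower, and the pseudogene FCGR1BP shares its sequence. Among chemoattractant receptors 12 of 16 rose (median 2.45). PTAFR, the receptor for platelet-activating factor, went from 8.70, 7.89 and 9.08 CPM to 176.9, 156.5 and 206.0 CPM (4.39 ± 0.0964). The formyl peptide receptors FPR1 and FPR2 were 61.9-fold (31.1 to 144) and at least 37.5-fold higher, CXCR2 changed by 3.09 ± 0.125, CXCR4 by 1.81 ± 0.105 and CCR1 by 3.29 ± 0.0978. P2RY2, a nucleotide receptor, fell from 238.2, 263.6 and 272.7 CPM to 119.4, 114.4 and 123.1 CPM (-1.12 ± 0.0739), and the monocyte receptor CCR2 was 14.5-fold lower (8.49 to 27).

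Of 21 cytokine and chemokine genes tested, 12 rose, 3 fell and 6 did not pass (median 1.13). Chemokines rose in 7 of 9 cases. CCL2, which draws monocytes, went from 1.73, 1.95 and 2.06 CPM to 656.4, 575.6 and 755.0 CPM (8.43 ± 0.127, adjusted p = 1.35e-22). CXCL8, which draws neutrophils, went from 15.5, 8.19 and 19.8 CPM to 417.5, 354.4 and 521.8 CPM (4.89 ± 0.235), and CCL4 was 159-fold higher (80.4 to 369). Among cytokines IL1B changed by 5.78 ± 0.215, CSF1 by 5.26 ± 0.303 and OSM by 2.02 ± 0.188, while TNF changed by -1.01 ± 0.166 and TNFSF10 (TRAIL) by -0.66 ± 0.144. Receptors for cytokines rose in 14 of 17 cases (median 1.10). CSF3R, the receptor for granulocyte colony-stimulating factor, went from 43.9, 41.0 and 45.7 CPM to 369.2, 337.6 and 449.4 CPM (3.15 ± 0.0863). TNFRSF1B, a TNF receptor, changed by 7.00 ± 0.293 and the interferon gamma receptor chain IFNGR1 by 1.81 ± 0.0781. The progenitor receptor FLT3 changed by -2.54 ± 0.276 and the interleukin-17 receptor IL17RA by -1.48 ± 0.0740. CSF2RA and IL3RA are among 44 genes with a pseudoautosomal copy on the Y chromosome, and all 44 are listed at 0 in all 24 libraries, so their levels are not known from these counts.

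Of the genes for microbial sensing, 17 of 19 tested rose, with a median of 2.25. The adaptor MYD88 changed by 1.86 ± 0.0831, TLR1, TLR4 and TLR6 by 2.26 ± 0.150, 1.41 ± 0.113 and 2.29 ± 0.143, the inflammasome sensors NLRC4 and NLRP12 by 4.19 ± 0.164 and 4.77 ± 0.218, and CASP1 by 2.55 ± 0.134. IRAK3, a brake on Toll-like receptor signalling, changed by -0.29 ± 0.0882. TLR2, TLR5, TLR7, TLR8 and TLR9 were too low to be tested.

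Interferon-stimulated genes rose in 37 of 42 cases, with 1 falling and 4 not passing. Their median change was 2.46, or 2.19 with genes at 0 untreated set to their bound. The transcription factors all rose: IRF1 went from 15.3, 17.8 and 17.3 CPM to 186.3, 170.9 and 194.8 CPM (3.45 ± 0.0847) and STAT2 changed by 1.53 ± 0.0855. Of the antiviral effectors, OAS3 (chr12:112938352-112973249) went from 2.71, 2.03 and 2.06 CPM to 63.5, 59.9 and 66.7 CPM (4.81 ± 0.110). IFI6 changed by 4.12 ± 0.149, TRIM22 by 3.73 ± 0.141, SAMD9L by 3.48 ± 0.207 and IFIT3 by 2.48 ± 0.178. IFIT1 changed by only 0.60 ± 0.170 and MX2, already at 151.2 to 158.2 CPM untreated, was at 0.07 ± 0.0583. In the ISG15 conjugation group ISG15 changed by 1.97 ± 0.146 and its activating enzyme UBA7 by 3.24 ± 0.111, whereas the ligase HERC5 fell from 21.6, 18.0 and 14.0 CPM to 3.63, 3.75 and 4.23 CPM (-2.21 ± 0.160). No interferon gene was on the list. Without ATRA replicate 2, 36 rose and 1 fell.

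The promoters of 4 interferon-stimulated genes that rose by different amounts are shown because the same short element recurs in them. They are RefSeq letters (GRCh38.p14, plus strand) with each match of GAAA followed after 2 bases by another GAAA, on either strand, in capitals: chr10:89392463-89392622 for IFIT1, chr10:89327837-89327996 for IFIT3, chr1:1013337-1013496 for ISG15 and chr12:112938314-112938473 for OAS3.
IFIT1: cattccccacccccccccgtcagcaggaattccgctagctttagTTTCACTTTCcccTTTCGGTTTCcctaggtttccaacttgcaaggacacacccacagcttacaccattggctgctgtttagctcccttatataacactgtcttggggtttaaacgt
IFIT3: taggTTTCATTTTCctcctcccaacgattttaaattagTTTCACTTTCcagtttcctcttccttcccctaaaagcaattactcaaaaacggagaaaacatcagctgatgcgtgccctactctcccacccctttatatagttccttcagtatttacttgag
ISG15: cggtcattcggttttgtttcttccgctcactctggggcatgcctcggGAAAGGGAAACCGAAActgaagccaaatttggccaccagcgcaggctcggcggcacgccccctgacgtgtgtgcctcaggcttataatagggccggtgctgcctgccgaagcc
OAS3: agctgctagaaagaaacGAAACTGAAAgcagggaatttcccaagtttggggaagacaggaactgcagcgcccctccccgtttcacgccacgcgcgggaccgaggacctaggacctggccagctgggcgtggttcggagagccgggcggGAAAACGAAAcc
The element is the core of the site that interferon regulatory factors are known to bind. In ISG15 the matches overlap. Over the window from 250 bases before to 50 after the start, it was found in 20 of 33 interferon-stimulated genes with a promoter (60.6%), in 3.65% of all 27305 promoters and in 3.0% of those of tested genes. Among tested genes that rose at least 2-fold it was found in 100 of 1632 promoters (6.13%), and among those that fell at least 2-fold in 12 of 741 (1.62%). HERC5, which fell, also holds it, and CEACAM1 was the single match among the 12 largest rises.

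The NF-kB pathway rose in 13 of 15 genes (median 0.87), including all 5 subunits, NFKB2 by 1.47 ± 0.134, the inhibitor NFKBIA by 1.34 ± 0.0971 and the target gene TNFAIP2 from 25.5, 28.8 and 28.5 CPM to 716.9, 621.1 and 840.9 CPM (4.72 ± 0.0973). NFKBIB changed by -0.87 ± 0.0982. It was the single fall without ATRA replicate 1 or 2 or untreated replicate 1 or 3, where TRAF2 (-0.22 ± 0.0918 with all libraries) was not called. Genes of antigen presentation by MHC rose in 15 of 15 tested (median 2.09). B2M, the class I light chain, went from 1187, 1114 and 1128 CPM to 2852, 2646 and 2960 CPM (1.30 ± 0.0575). HLA-E changed by 2.40 ± 0.0925, HLA-B and HLA-C by 3.33 ± 0.286 and 2.54 ± 0.150, the immunoproteasome subunits PSMB8 and PSMB9 by 2.09 ± 0.0864 and 4.64 ± 0.200, and the peptide trimmer ERAP2 by 2.35 ± 0.0837. Of 10 class II genes only HLA-DMA and CD74 had enough counts, and HLA-DRA, HLA-DPA1, HLA-DPB1 and HLA-DQA1 had no count in any of the 6 libraries. CD74, the invariant chain, was 128-fold higher (64.8 to 298) at 8.22, 7.67 and 8.50 CPM.

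Signalling proteins of myeloid cells rose in 24 of 27 cases, with a median of 2.01, or 1.55 with genes at 0 untreated at their bound. The SRC-family kinase FGR (chr1:27612064-27635277) went from 0.469, 0.601 and 0.395 CPM to 666.8, 561.8 and 798.7 CPM (10.44 ± 0.160, adjusted p = 1.47e-22). Its relative LYN changed by 1.43 ± 0.0774. The adaptor PRAM1, named for its regulation by PML-RARA and retinoic acid, went from 14.1, 13.4 and 14.3 CPM to 617.2, 569.5 and 680.8 CPM (5.48 ± 0.0831). The signalling chain TYROBP changed by 3.55 ± 0.146, the lipid kinase PIK3CG by 2.01 ± 0.0628, the inhibitory receptors SIRPA and CD300A by 2.84 ± 0.0641 and 5.57 ± 0.188, and the myeloid marker CD33 by 0.36 ± 0.0677. CLEC12A, an inhibitory lectin of immature myeloid cells, fell from 3.01, 3.53 and 2.02 CPM to 0.747, 0.844 and 0.746 CPM, and the phosphatase INPP5D was at 0.04 ± 0.0580.

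Lipid mediator genes rose in 5 of 9 cases (median 1.09). ALOX5AP, the activating protein of leukotriene synthesis, went from 1.48, 1.30 and 1.23 CPM to 1125, 963.0 and 1254 CPM (9.70 ± 0.140), while ALOX5, the lipoxygenase it serves, had no count in any of the 6 libraries. PTGS1 (cyclooxygenase 1) changed by 4.47 ± 0.0701 and TBXAS1 (thromboxane synthase) by 1.47 ± 0.0716. PTGES2 and PTGES3, other prostaglandin E synthases, fell by 0.25 and 0.29 on the log2 scale, and 1 of them was called without untreated replicate 3. Genes of coagulation and fibrinolysis, relevant to the bleeding disorder of APL, rose in 10 of 14 cases and fell in 3 (median 1.61). F3, the tissue factor that starts coagulation, went from 26.0, 24.9 and 24.8 CPM to 4.88, 2.95 and 3.58 CPM (-2.73 ± 0.154). ANXA2, which with S100A10 gathers plasminogen on the APL cell surface, went from 37.2, 34.6 and 37.9 CPM to 7.18, 7.78 and 8.70 CPM (-2.21 ± 0.0909), and S100A10 changed by -0.69 ± 0.128. F3 and ANXA2 were lower in every ATRA library than in any untreated one, and the groups did not overlap for 62.9% of all genes tested. PLAU (urokinase) and PLAUR, its receptor, changed by 1.51 ± 0.0761 and 1.05 ± 0.149, the plasminogen activator inhibitor SERPINB2 by 6.54 ± 0.290, THBD (thrombomodulin) by 1.70 ± 0.158, and factor V, F5, was 133-fold higher (76.1 to 259).

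Of 10 S100 genes, 6 rose and 2 fell (median 1.70). S100A8, the partner of S100A9 in calprotectin, went from 0.444, 0.250 and 0.483 CPM to 169.1, 156.1 and 220.0 CPM (8.83 ± 0.204), S100A9 changed by 8.46 ± 0.199, and S100A12, at 0 untreated, was at least 116-fold higher. S100A4 fell by 0.21 on the log2 scale at an adjusted p that rounds to 0.05. It was not called with the replicate block (-0.21, adjusted p = 0.0612), nor without ATRA replicate 2 or 3 or untreated replicate 2 or 3, which left 1 gene lower. Apart from TGM2, TGM5 was the other transglutaminase to rise (2.11 ± 0.0833), and TGM1 was at 0.14 ± 0.244, so that 2 of 3 tested rose (median 2.11).

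**Figure D3:**
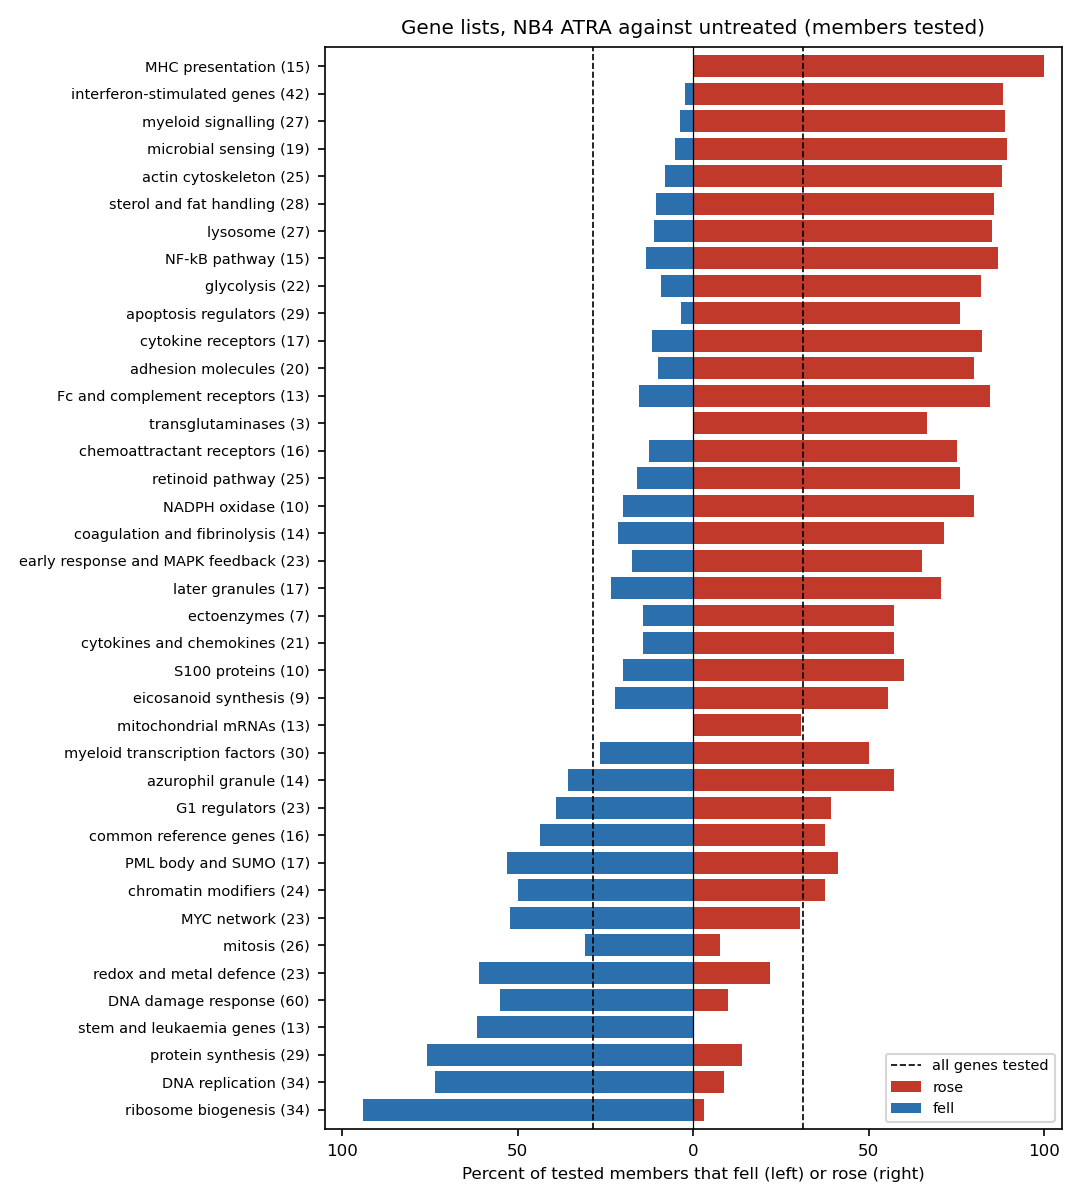
Share in percent (x axis) of the tested members of each of 39 gene lists that rose or fell with ATRA, with dashed lines at the shares over all genes tested (31.3% higher and 28.6% lower). Lists of MHC presentation, interferon-stimulated genes, myeloid signalling and microbial sensing lie at the end with rises, and ribosome biogenesis at the end with falls.

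Actin cytoskeleton genes rose in 22 of 25 cases, by a median of 0.85. The myosin MYO1F changed by 2.53 ± 0.0618, WAS (the Wiskott-Aldrich protein) by 2.03 ± 0.0693, CORO1A (coronin) by 1.35 ± 0.0695 and LCP1 (L-plastin) by 0.65 ± 0.0454. LCP1 was at 2385, 2289 and 2340 CPM untreated and 3670, 3672 and 3683 CPM with ATRA. The crosslinker ACTN1 and the engulfment adaptor ELMO1 changed by -0.50 ± 0.0629 and -0.44 ± 0.0712. Lysosomal genes rose in 23 of 27 cases (median 0.91). CTSD (cathepsin D) went from 18.2, 16.8 and 18.9 CPM to 288.3, 243.2 and 287.0 CPM (3.92 ± 0.0776), though 41.7% of its exon bases overlap another gene. GRN (progranulin) changed by 2.73 ± 0.0853, NPC2 by 2.17 ± 0.0889 and CTSZ by 1.98 ± 0.0690. The proton pump subunits rose modestly, ATP6V0D1 by 0.80 ± 0.0749 and ATP6V1A by 0.44 ± 0.0654. CTSH went from 124.1, 123.6 and 139.0 CPM to 39.3, 36.4 and 49.1 CPM (-1.63 ± 0.0897), and LAMP1 changed by -0.35 ± 0.0557 against 0.69 ± 0.0558 for LAMP2.

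Sterol and fat genes rose in 24 of 28 cases (median 1.03), with all 11 genes of sterol synthesis and all 6 of fatty acid synthesis rising. INSIG1, the sterol sensor of the endoplasmic reticulum, changed by 1.46 ± 0.0893 and the synthase HMGCS1 by 1.47 ± 0.105. Among target genes of the LXR and PPAR receptors, the cholesterol exporter ABCA1 rose from 46.2, 45.5 and 44.7 CPM to 192.7, 221.8 and 212.9 CPM (2.20 ± 0.0786). Fatty acid carrier FABP5 and the mitochondrial importer CPT1A changed by -1.07 ± 0.0821 and -0.83 ± 0.0658. Glycolytic genes rose in 18 of 22 cases (median 0.75). PKM, pyruvate kinase, went from 1288, 1266 and 1400 CPM to 4829, 4244 and 5353 CPM (1.87 ± 0.0693). The hexokinases changed in opposite directions, HK3, the neutrophil form, being 1460-fold higher (795 to 3050) and HK2 changing by -0.60 ± 0.0674. The sugar transporters SLC2A5 and SLC2A3 changed by 3.75 ± 0.0650 and 2.62 ± 0.175, while LDHA was at -0.01 ± 0.0658. HK2 was the single glycolytic fall without ATRA replicate 1 or untreated replicate 1 or 3.

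Of 13 messenger RNAs of the mitochondrial genome, 4 rose and 9 did not pass (median 0.21), beside 31.3% higher over all genes tested. MT-CO2, a cytochrome c oxidase subunit, had 6042, 5584 and 5728 CPM untreated and 7520, 6805 and 6533 CPM with ATRA (0.27 ± 0.0746). The count depended on single libraries: 2 rose without ATRA replicate 1, 7 without ATRA replicate 3 and 9 without untreated replicate 1. With the replicate block 6 rose, including MT-CYB (0.25, adjusted p = 0.0053) and MT-ATP6 (0.22, adjusted p = 0.0149). Redox and metal genes mostly fell, 14 of 23 with 5 rising (median -0.23). NQO1, a quinone reductase under NRF2, went from 45.7, 45.5 and 46.0 CPM to 9.98, 9.28 and 9.95 CPM (-2.23 ± 0.0908). PRDX1 (peroxiredoxin 1) changed by -1.27 ± 0.0580, SLC7A11 (the cystine importer) by -1.31 ± 0.0993, SOD1 by -0.77 ± 0.0626 and the metallothionein MT2A by -2.58 ± 0.0834. HMOX1 (haem oxygenase) rose by 2.52 ± 0.307 at low level, and TXNRD1 was at 0.01 ± 0.0510. TFRC, the transferrin receptor, changed by -0.52 ± 0.0709 beside 1.28 ± 0.0619 for FTL.

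Regulators of apoptosis rose in 22 of 29 cases, with 1 falling and 6 not passing (median 0.61). BCL2 was the fall, from 70.7, 83.2 and 74.0 CPM to 6.03, 6.38 and 4.48 CPM (-3.76 ± 0.115, adjusted p = 1.54e-17). Its protective relatives rose: BCL2A1 went from 3.11, 3.16 and 2.06 CPM to 240.0, 238.4 and 292.1 CPM (6.54 ± 0.156) and MCL1 from 235.2, 247.3 and 231.6 CPM to 597.9, 547.8 and 704.2 CPM (1.37 ± 0.0797). The protective members thus changed in opposite directions within the family. BAK1 and BAX, which open the mitochondrial membrane, changed by 1.01 ± 0.0791 and 0.49 ± 0.0868, PMAIP1 (NOXA) by 0.85 ± 0.113, and the initiator caspases CASP8 and CASP9 by 1.42 ± 0.0749 and 1.8 ± 0.0960. A further fall besides BCL2 was called without ATRA replicate 1 or 2 or untreated replicate 1, giving 2.

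Regulators of the G1 phase split by role: 8 of 10 inhibitors rose and none fell, while 9 of 13 drivers fell and 1 rose (9 and 9 of 23, median -0.09). CDKN1A (p21) went from 0.690, 0.601 and 1.01 CPM to 11.3, 8.60 and 16.8 CPM (3.98 ± 0.238), CDKN2D (p19) changed by 2.92 ± 0.128, and the antiproliferative BTG2 by 5.57 ± 0.200. CDK4 went from 240.6, 250.2 and 266.9 CPM to 141.8, 122.3 and 121.6 CPM (-0.97 ± 0.0757), with 43.2% of its exon bases shared with another gene, and CCNE1, SKP2 and CDC25A changed by -1.01 ± 0.0952, -0.73 ± 0.0584 and -0.82 ± 0.0642. CCND1 (cyclin D1) was the driver that rose, by 1.07 ± 0.0796. Without ATRA replicate 2 the inhibitor RBL1 was called lower (-0.24), which gave 1 of 10.

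Most mitotic genes did not pass the test, with 2 of 26 rising, 8 falling and 16 not passing (median -0.12). Over all genes tested 31.3% rose and 28.6% fell, so the share of mitotic genes that fell was near that of all genes. CCNA2 (cyclin A2) had 272.3, 284.6 and 269.1 CPM untreated and 186.3, 200.4 and 169.3 CPM with ATRA (-0.57 ± 0.0627), CENPF changed by -0.78 ± 0.128 and BUB1B by -0.47 ± 0.0775. CDK1 and AURKA were at -0.02 ± 0.0771 and 0.10 ± 0.0599. MKI67, the proliferation marker, had 962.7, 867.2 and 846.0 CPM untreated and 749.1, 893.3 and 810.8 CPM with ATRA (-0.13 ± 0.0693), so the groups overlapped through ATRA replicate 2. Without that library MKI67 changed by -0.21 (adjusted p = 0.00637), TOP2A by -0.45 (adjusted p = 6.4e-07), and 12 genes fell and 1 rose. The rises, CCNB2 (0.19 ± 0.0573) and KIF20A (0.17 ± 0.0644), were not called when scaled by library totals (0.12, adjusted p = 0.0653, and 0.10, adjusted p = 0.172), under which 15 of the 26 fell. KIF20A was also not called without ATRA replicate 1 or 2 or untreated replicate 1 or 2.

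Genes of DNA replication fell in 25 of 34 cases and rose in 3 (median -0.27), none by as much as 2-fold. The helicase subunits MCM6 and MCM4 changed by -0.73 ± 0.0634 and -0.61 ± 0.0584, the clamp loader subunit RFC3 by -0.87 ± 0.0655, MCM10 by -0.86 ± 0.0906 and the licensing factor CDC6 by -0.75 ± 0.0659. RRM2, the ribonucleotide reductase subunit, rose from 321.7, 351.1 and 341.1 CPM to 580.7, 555.7 and 563.1 CPM (0.75 ± 0.0558), and thymidine kinase TK1 by 0.85 ± 0.0877. The third rise, of the helicase subunit MCM5 (0.20 ± 0.0711), was not called when scaled by library totals (0.13, adjusted p = 0.104), nor without ATRA replicate 1 or 3 or untreated replicate 1 or 2.

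Of 60 genes of the DNA damage response, the subject of the series, 33 fell, 6 rose and 21 did not pass (55.0% lower, median -0.26). Homologous recombination and Fanconi anaemia genes had 12 falls and no rise among 18. BRCA2 went from 187.1, 161.7 and 135.8 CPM to 64.9, 90.1 and 60.5 CPM (-1.17 ± 0.119), and XRCC2, a recombination protein, from 104.7, 98.2 and 99.8 CPM to 45.5, 52.4 and 40.3 CPM (-1.13 ± 0.0834). The groups did not overlap for either, as for 62.9% of all genes tested. The nuclease EXO1 changed by -1.11 ± 0.0846 and MRE11 by -0.58 ± 0.101. Among end joining genes 5 of 8 fell. SHLD2, of the shieldin complex that protects broken ends, went from 162.2, 162.2 and 142.7 CPM to 50.9, 60.4 and 46.0 CPM (-1.57 ± 0.0880), the largest fall of the list, and the kinase subunit PRKDC changed by -0.53 ± 0.0614. Among 20 genes of mismatch and excision repair 10 fell, with UNG (uracil glycosylase) at -1.11 ± 0.0660 and PARP1 at -0.63 ± 0.0573. Checkpoint genes were divided, 6 of 14 lower and 3 higher: CHEK1 changed by -0.62 ± 0.0786, CLSPN by -0.57 ± 0.0880, ATM by 0.35 ± 0.0884 and the mitosis-promoting phosphatase CDC25C by 0.57 ± 0.0858. The damage sensor DDB2 and the end-joining nuclease DCLRE1C rose by 0.72 ± 0.0895 and 0.65 ± 0.0955. Without ATRA replicate 2, 37 fell and 7 rose.

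Ribosome biogenesis fell in 32 of 34 genes (median -0.82), the largest share of falls among the lists. Of RNA polymerase I genes, POLR1B went from 172.0, 171.3 and 168.1 CPM to 65.5, 74.3 and 69.4 CPM (-1.29 ± 0.0714). The nucleolar protein NPM1 (nucleophosmin, also a RARA fusion partner in variant APL) went from 3107, 3019 and 2874 CPM to 1391, 1622 and 1348 CPM (-1.05 ± 0.0673). LYAR, UTP20, GNL3 and WDR12 changed by -1.58 ± 0.0835, -1.45 ± 0.0883, -1.37 ± 0.0899 and -1.11 ± 0.0686, and all lay lower in all 3 ATRA libraries. For 62.9% of all genes tested the groups did not overlap. POLR1D was the rise (0.20 ± 0.0608), which was not called when scaled by library totals (0.14, adjusted p = 0.0515). The E-box CACGTG, to which MYC and its partners are known to bind, was found in 10 of 28 promoters of this list (35.7%), in 7.43% of all promoters and in 10.1% of those of tested genes over the whole window. Counting only the 250 bases before the start, it was in 2 of 28 (7.14%) against 6.49% of all promoters.

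Genes of protein synthesis fell in 22 of 29 cases and rose in 4 (median -0.45). The cap-binding factor EIF4E changed by -0.90 ± 0.0700, EIF3B by -0.82 ± 0.0602 and EIF5B by -1.06 ± 0.110. Of 15 tRNA synthetases 12 fell, IARS1 by 0.87 and GARS1 by 0.72 on the log2 scale, whereas WARS1, also known as an interferon-inducible gene, rose from 122.8, 120.2 and 122.9 CPM to 306.8, 281.3 and 315.9 CPM (1.30 ± 0.0581). The small rises of the elongation factors EEF1A1 (0.12 ± 0.0469) and EEF2 (0.23 ± 0.0712) were not called without ATRA replicate 3 or untreated replicate 2, which left 2 genes higher. EEF1A1 was not called without ATRA replicate 1 either, nor when scaled by library totals (0.06). MYC went from 537.7, 560.5 and 603.7 CPM to 304.5, 270.3 and 301.9 CPM (-0.96 ± 0.0682). Of its partners and antagonists 7 of 10 rose, among them the MAX-binding repressors MXD1 (1.67 ± 0.0991) and MNT (1.02 ± 0.0902), and of its target genes 10 of 13 fell and none rose. The polyamine enzymes SRM and ODC1 changed by -1.49 ± 0.0939 and -0.80 ± 0.0619 and the pyrimidine enzyme CAD by -1.39 ± 0.0738, so that the list of 23 had 7 rises, 12 falls and a median of -0.31.

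Stem cell and leukaemia genes had 8 falls and no rise among 13 (median -0.76). TERT, the telomerase catalytic subunit, went from 16.9, 16.2 and 19.1 CPM to 0.400, 0.686 and 0.821 CPM (-4.76 ± 0.195). WT1 went from 97.3, 93.7 and 102.4 CPM to 16.4, 17.6 and 23.0 CPM (-2.36 ± 0.119), SOX4 changed by -0.76 ± 0.110, and HGF, a growth factor made by APL cells, was 25.9-fold lower (13.9 to 54.5). Chromatin modifiers had 9 rises and 12 falls among 24 (median -0.16). The peptidylarginine deiminases PADI4, which citrullinates histones in neutrophil extracellular traps, and PADI2 rose, PADI4 from 1.38, 1.60 and 0.549 CPM to 241.2, 208.5 and 282.9 CPM (7.72 ± 0.179) and PADI2 by 5.40 ± 0.110. DNMT3B and KDM1A (the demethylase LSD1) changed by -1.78 ± 0.0858 and -0.92 ± 0.0594, against 0.89 ± 0.0709 for DNMT3A and 1.57 ± 0.0945 for KDM6B. Of 23 early response and MAPK feedback genes 15 rose and 4 fell (median 0.82): the ERK phosphatases DUSP6 and DUSP5 rose by 2.80 ± 0.0761 and 3.05 ± 0.182, FOS by 2.44 ± 0.183, and DUSP10 changed by -1.77 ± 0.177. For DUSP6, 40.5% of exon bases overlap another gene. Ectoenzymes had 4 rises and 1 fall among 7 tested (median 1.35). CD38, a surface NAD glycohydrolase known to be induced by retinoic acid, went from 94.8, 92.9 and 91.3 CPM to 638.8, 624.2 and 652.3 CPM (2.78 ± 0.0596), and ANPEP (CD13) changed by -0.99 ± 0.0729.

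**Figure D4:**
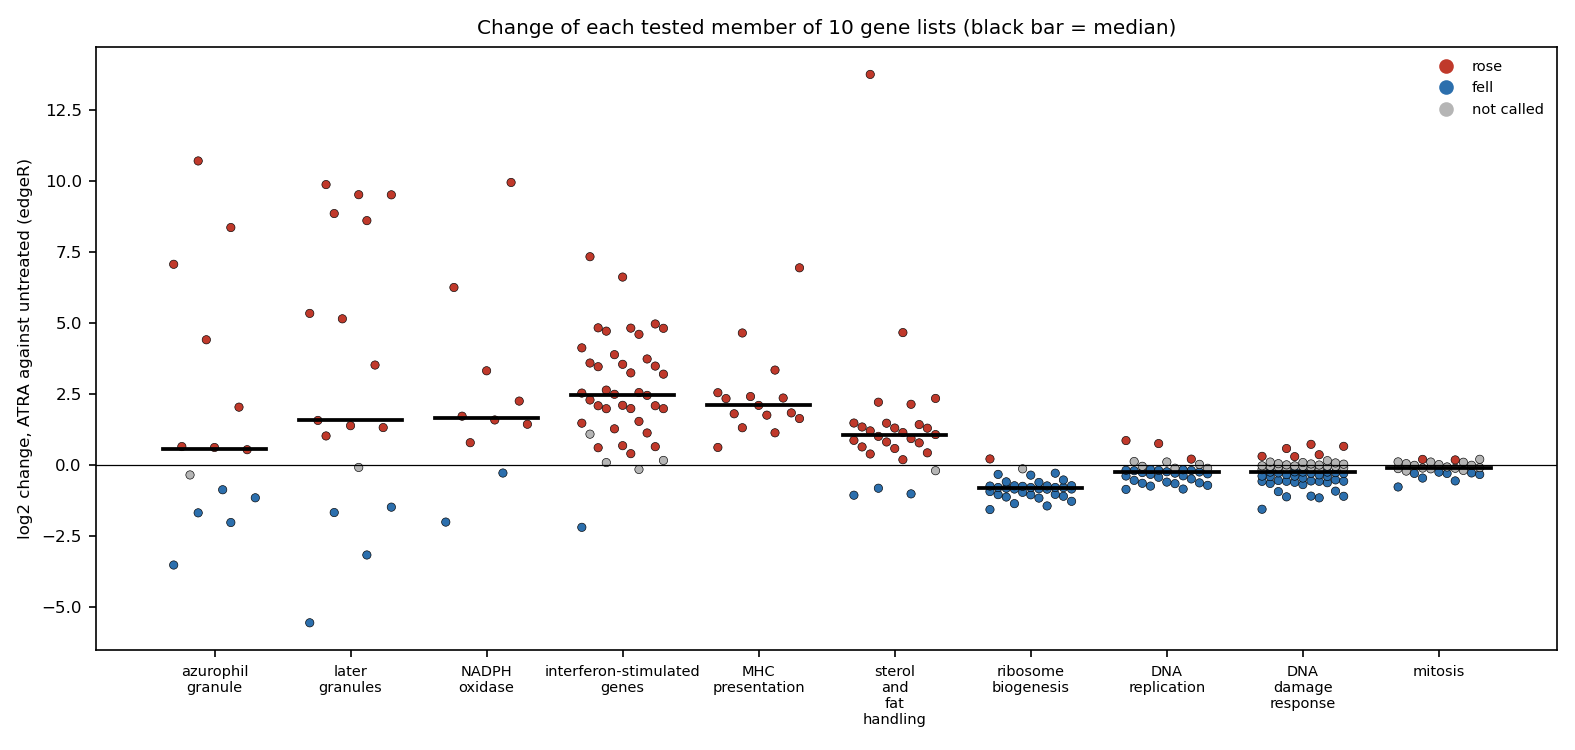
Log2 change with ATRA (y axis) of each tested member of 10 gene lists, with points coloured by call and a bar at the median of the list. Members of the interferon-stimulated list spread widely around a median of 2.46, while ribosome biogenesis genes lie closely around -0.82.

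Long non-coding RNAs with large changes included PELATON (chr20:50267486-50279795), at 0 untreated and 33.4, 32.3 and 41.6 CPM with ATRA, at least 499-fold higher. LINC01091 was 174-fold higher (105 to 310), Z98257.1 56.1-fold higher (34.8 to 96.7), and PTPRN2-AS1 changed by 5.55 ± 0.134. LINC01833 was 83.8-fold lower (42.3 to 195), and LINC02204 changed by -3.94 ± 0.242. TRD-AS1 and WT1-AS changed by -2.22 ± 0.207 and -2.10 ± 0.205. Of their exon bases, 0.0% for PTPRN2-AS1, 17.7% for TRD-AS1 and 2.0% for WT1-AS are shared with a gene on the opposite strand.

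Whether NB4 responded differently from HL-60 was tested as the difference of the 2 log2 changes in a model of all 24 libraries. Of 17930 genes, 6185 (34.5%) differed, 3178 (17.7%) with a larger log2 change in NB4 and 3007 (16.8%) with a smaller one. Of interferon-stimulated genes, 33 of 42 had a larger change in NB4 and 1 a smaller, with a median change of 0.68 in HL-60. For MHC presentation the count was 13 of 15 larger, for actin genes 20 of 25, for glycolysis 15 of 22 and for myeloid signalling 18 of 27. Ribosome biogenesis had a smaller (more negative) change in NB4 for 27 of 34 genes and protein synthesis for 16 of 29. Lysosomal genes went the other way, 12 of 27 having a smaller change in NB4 and 4 a larger. In the DNA damage response 16 of 60 had a smaller and 10 a larger change.

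Single genes differed in direction or in size. MPO changed by -2.76 in HL-60 and by -0.88 in NB4, a difference of 1.86 ± 0.109 (adjusted p = 6.36e-15). The transcription factors VDR and NFE2 fell in HL-60 (-1.19 and -1.46) and rose in NB4, with differences of 2.10 ± 0.106 and 2.40 ± 0.174. TNFRSF1B, at 0.09 in HL-60, differed by 6.90 ± 0.307, ALOX5AP by 6.81 ± 0.148, NCF1 by 5.01 ± 0.187, ITGAM by 2.43 ± 0.134, ITGAL by 2.44 ± 0.0994 and ASB2 by 3.87 ± 0.242. TGM2 rose in both lines and differed by 3.73 ± 0.819 (adjusted p = 0.000494). Its mean level went from 0.0475 to 5767 CPM in NB4 and from 0.107 to 993 CPM in HL-60. Both untreated levels were near 0, with 6 counts in the untreated NB4 libraries together, so the size of this difference is imprecise. CEBPE, MYC and IFI6 had no called difference, at -0.12 ± 0.108, -0.10 ± 0.0872 and 0.32 ± 0.275. CR1 rose more in HL-60, a difference of -1.87 ± 0.162.

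**Figure D5:**
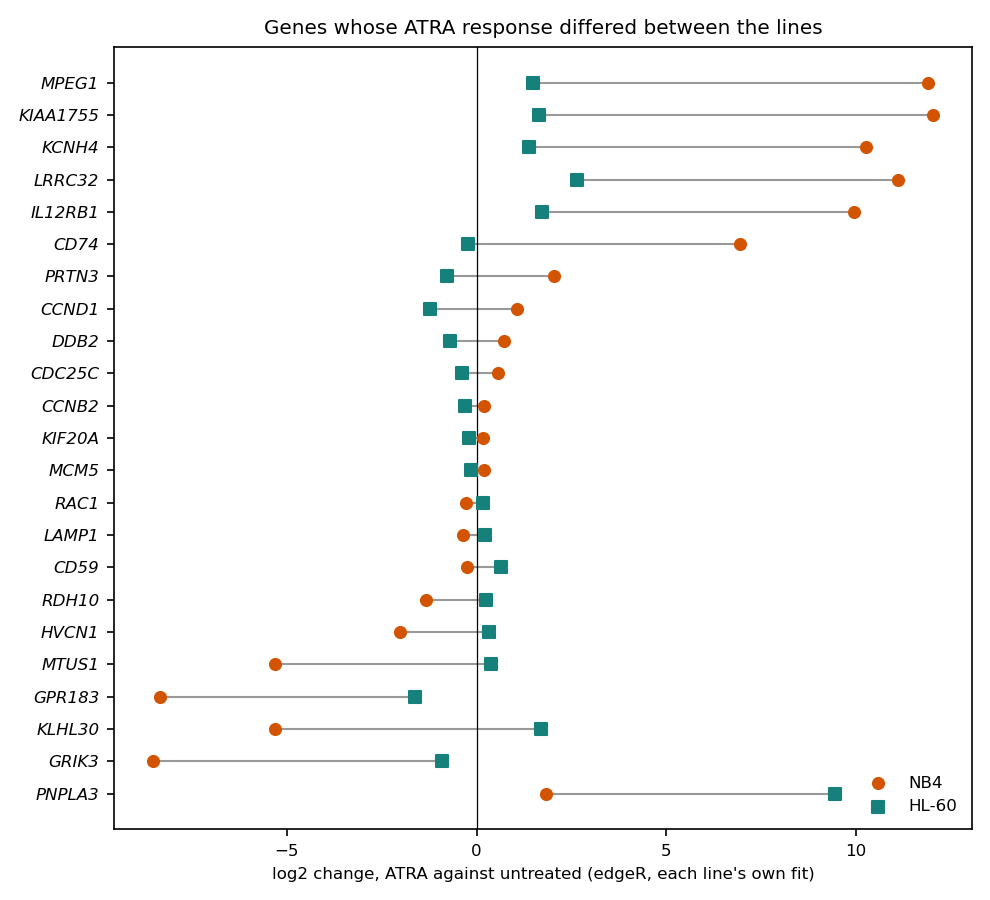
Log2 change with ATRA (x axis) in NB4 (circles) and HL-60 (squares) of 23 genes with a called difference that were tested in the fits of both lines, chosen for the size of the difference or for opposite called directions. PRTN3, CCND1, DDB2 and CDC25C rose in NB4 and fell in HL-60, while RAC1, LAMP1, CD59, RDH10, HVCN1 and MTUS1 fell in NB4 and rose in HL-60.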

How the data were processed

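Poly(A) RNA of all 24 libraries was sequenced in pairs, and the authors deposited 1 table of raw counts per gene (60655 genes), made with fastp, HISAT2 and featureCounts on GRCh38, per the submitters' processing notes. The sources used here do not give tool versions, the annotation release, the strand setting or the unit counted (reads or fragments). Low counts were mostly even (74.38% of values from 1 to 9, against 51.54% of those of 500 and more), so mates may have been counted separately. Exon lengths and positions are those of GENCODE release 29, which held 58437 of the genes. Symbols are from a separate list of gene names, or from release 29 where that list gave none.

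The ATRA effect was tested with edgeR 4.0.16 (TMM scaling, filterByExpr, quasi-likelihood test) on the 12 NB4 libraries, with treatment as the term and Benjamini-Hochberg adjustment over 16370 genes, and the difference between lines on all 24 libraries. Calls are at an adjusted p below 0.05. The biological coefficient of variation was 8.78%. The script was tested on simulated data. Totals of 39769156 to 46408919 counts make genes under a few CPM the least precise, and for a group with 30 counts or fewer the fold is a ratio of counts with an exact 95% interval or, from 0, a bound at 3 counts per library.

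The replicate number is labelled as a batch. Deviations of same-numbered untreated and ATRA libraries correlated at -0.0787, 0.0598 and 0.216, and a fit with the number as a block was run as an alternative. Other alternatives were DESeq2 1.42.0, its size factors, limma-voom (limma 3.58.1), library totals alone, other filters and thresholds, halved counts, other sets of libraries and each library left out.

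The 39 gene lists (890 distinct genes) and the cell markers were chosen with earlier results of these data known. Genes were named by a rule: the 12 protein-coding genes that rose most and the 12 that fell most, with at least 5 CPM and the same sign in 3 batches, the 8 largest gains and losses in CPM per kb, the 4 largest rises and falls of long non-coding RNAs, per list the called members with the smallest p in each role and direction, the next 2 and the most abundant uncalled member, and the 6 largest line differences each way. Other members named to complete a role were chosen after their values were seen. Promoters are RefSeq's (GRCh38.p14). Python 3.11.15, pandas 2.3.3, scipy 1.17.1, matplotlib 3.10.9 and R 4.3.3 were used.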

Additional observations from a re-analysis of the deposited data

Results flagged for a closer look

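The 6 protein-coding genes with the largest called difference between the lines in each direction, among those with at least 5 CPM in 1 of the 4 groups, and every rule-named gene whose called directions were opposite, are given as the NB4 minus the HL-60 log2 change (edgeR quasi-likelihood test of the difference, all 24 libraries), with mean levels from untreated to ATRA. Differences that involve a group without counts depend on the fit's prior and are no bounds.

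With a larger change in NB4, KIAA1755 differed by 10.31 (0 to 11.96 CPM in NB4, 0.743 to 2.30 in HL-60). MPEG1, a pore-forming protein of phagocytes, differed by 10.36 (0 to 10.91 and 2.31 to 6.40 CPM). CXCL10, an interferon-induced chemokine, differed by 9.13 (0.447 to 11.25 and 0.0606 to 0 CPM). The potassium channel KCNH4 differed by 8.87 (0.0577 to 71.76 and 1.79 to 4.64 CPM). LRRC32, which holds latent TGF-beta, differed by 8.43 (0 to 6.29 and 0.0268 to 0.198 CPM), and the difference was 4.88 and no longer called without untreated HL-60 replicate 2. IL12RB1, an interleukin-12 receptor chain, differed by 8.17 (0 to 2.82 and 3.07 to 10.01 CPM).

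With a smaller change in NB4, the lipase PNPLA3 differed by -7.61 (0.486 to 1.74 CPM in NB4, 0.0169 to 12.47 in HL-60). GRIK3, a glutamate receptor, differed by -7.55 (1.06 to 0 and 8.04 to 4.20 CPM). GUCY1A2, a guanylate cyclase subunit, differed by -7.13 (0.114 to 0 and 3.01 to 10.91 CPM). KLHL30 differed by -6.95 (0.110 to 0 and 4.12 to 13.19 CPM). GPR183, an oxysterol receptor, differed by -6.69 (0.932 to 0 and 13.33 to 4.32 CPM). The myosin MYO1E differed by -5.87 (0.0867 to 0 and 81.54 to 156.4 CPM). In NB4, GUCY1A2 and MYO1E were too low to be tested for a change.

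Opposite called directions were found for 15 of the genes named by the rule, a count that does not cover other list members. Higher in NB4 and lower in HL-60 were PRTN3 (difference 2.80, 400.2 to 1632 and 1203 to 692.8 CPM), CCND1 (2.28, 35.3 to 73.86 and 10.22 to 4.34 CPM), DDB2 (1.40, 13.1 to 21.53 and 18.81 to 11.5 CPM) and CDC25C (0.94, 13.97 to 20.74 and 14.47 to 11.04 CPM). So were CCNB2 (0.48), KIF20A (0.35) and MCM5 (0.34), whose rises in NB4 were not called when scaled by library totals, and CD74 (7.15), which rose from 0.0645 to 8.13 CPM in NB4 and fell from 542.8 to 460.2 CPM in HL-60. Lower in NB4 and higher in HL-60 were MTUS1 (-5.69, 14.6 to 0.362 and 70.14 to 89.93 CPM), HVCN1 (-2.35, 57.28 to 14.09 and 71.07 to 88.02 CPM), RDH10 (-1.57, 13.71 to 5.48 and 19.76 to 23.11 CPM), CD59 (-0.90), LAMP1 (-0.57), RAC1 (-0.46) and KLHL30, given above.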

How the results depend on the processing

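The number of genes called with ATRA lay between 8259 (adjusted p below 0.01) and 9931 (DESeq2) over the alternatives, and between 9197 and 9790 with each library left out. The line difference gave 4651 (adjusted p below 0.01) to 6628 genes (DESeq2), and 5666 to 6442 with each library left out. None of these moved by over 1.5 times. Library totals alone took the share of calls that were higher from 52.2% to 47.5%. With the replicate block 9592 genes were called, 9544 of them with the same sign as without it, and 6030 line differences. Of the lists, the mitochondrial messenger RNAs that rose went from 4 to 6. FANCE, HOXA10, NOP2 and S100A4 lost their call and MT-ATP6, MT-CYB and TOP2A gained one, and the block changed no other call of a gene on the lists or named. No sign of a gene was reversed where either fit called it. Of 852 genes, 751 kept their side of the threshold under every alternative that was checked gene by gene and gave a value. The ATRA fits on only the 6 libraries compared and on all 24 libraries were not checked in this way. At a threshold of 0.01, 5 PML body and SUMO genes fell instead of 9. Library totals gave 3 redox genes higher instead of 5, 3 apoptosis regulators lower instead of 1, and 2 antimicrobial genes of the azurophil granule lower instead of 1. Halved counts and a filter of 1 CPM in 3 libraries left 1 S100 gene lower instead of 2. The causes were not tested. Depth limits genes under a few CPM, for which counting intervals span several-fold.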

Other observations

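Genes often used as references changed too: 6 of 16 rose and 7 fell (median -0.11). The shares over all genes tested were 31.3% higher and 28.6% lower. ACTB had 4605, 4805 and 4887 CPM untreated and 6951, 6068 and 7137 CPM with ATRA (edgeR, 0.50 ± 0.0579), GAPDH changed by 0.27 ± 0.0708 and HPRT1 by -0.46 ± 0.0647, while PPIA was at -0.03 ± 0.0533 and YWHAZ at -0.11 ± 0.0590.

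Summed markers of megakaryocytes lay between 1.45 and 2.3 CPM untreated and 5.88 and 6.52 CPM with ATRA (PF4 and GP9 at 0), those of dendritic cells at 0 untreated and between 0.712 and 1.76 CPM with ATRA (CLEC9A and LILRA4 at 0), and those of epithelial cells and fibroblasts between 13.9 and 17.5 CPM untreated and 12.2 and 14.0 CPM with ATRA.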
